A study of Rattus norvegicus with 10 samples.

Results

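Interferon-stimulated genes were examined in the lumbar enlargement of rats given morphine until tolerance, through 9 genes that carry much of the cell's answer to interferon: Irf7, Irf1, Mx1, Mx2, Oas1a, Ifit2, Ifit3, Isg15 and Gbp2. They were the 9 listed genes among the 13888 genes with an mRNA probe on the array, found by the RefSeq accession of the probe, and each had 1 probe with 1 spot. All 9 were well above background on all 10 arrays and were tested. The morphine tolerance (MT) group held 5 male Sprague Dawley rats of 240 to 260 g, numbered 1 to 5, which received 10 μg of morphine in 10 μl by intrathecal injection, 2 times a day for 7 days. The normal saline (NS) group held 5 male rats of the same strain and weight, numbered 6 to 10, which received 10 μl of saline on the same schedule. The tissue was collected on day 8, 1 hour after a last injection, and total RNA of each rat was hybridized to 1 one-colour array. No rat was free of intrathecal injections, and the arrays measured bulk tissue, so fewer cells of a type and less RNA per cell cannot be told apart.

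Interferons are secreted proteins that warn cells of infection. Type I interferons bind the receptor of Ifnar1 and Ifnar2, the kinases Jak1 and Tyk2 then activate factors such as Stat2, which joins Irf9 to bind the interferon-stimulated response element (ISRE) in the promoters of target genes. Interferon gamma binds another receptor and acts mainly at the gamma-activated site (GAS). In the nervous system microglia, astrocytes, endothelial cells and infiltrating lymphocytes all can respond to interferon, and some targets, Irf7 first among them, feed back on the pathway.

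Promoter sequences are shown because these elements are what the 9 genes are known for. RefSeq promoters (GRCr8, 250 bases before to 50 after the start) were at hand for 6 of the 9 genes, and Mx2, Isg15 and Ifit2 were not matched. The ISRE was searched by its core, a pair of GAAA runs with 2 bases of any kind between them, and the GAS as TTCNNNGAA, each on both strands, with overlapping matches counted. The stretches below run 5′ to 3′ along the strand of the gene, and the capitals mark the match.
Irf7, ISRE, chr1:205800073-205800102, minus strand: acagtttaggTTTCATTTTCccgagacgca
Ifit3, ISRE, chr1:241527257-241527316, plus strand: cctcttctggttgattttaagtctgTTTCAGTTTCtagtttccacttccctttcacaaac
Oas1a, ISRE, chr12:41330418-41330447, plus strand: ctctcggGAAATGGAAACTGAAAatcttgt
Gbp2, ISRE, chr2:234005667-234005726, plus strand: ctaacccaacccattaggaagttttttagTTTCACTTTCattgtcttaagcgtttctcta
Irf1, GAS, chr10:38417768-38417827, plus strand: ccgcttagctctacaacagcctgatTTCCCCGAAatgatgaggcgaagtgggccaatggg
Oas1a, GAS, chr12:41330257-41330286, plus strand: gtaacagcttTTCCCAGAAgaatctctgag

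The ISRE letters stood in 4 of these 6 promoters, against 3.92% of the 33469 promoters in the table, and the capitals of Oas1a hold 2 overlapping matches. The GAS letters stood in 2 of the 6, against 8.87% of all promoters. No match was found in the window of Mx1. The Irf7 stretch lies within the annotated span of its gene, and the ISRE stretch of Oas1a overlaps the first bases of its gene. A match of letters is a description of these windows and not a bound site.

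Before the results, 3 facts of the arrays bear on them. The scanner output carries 3 scan times: scan 1 held MT 1, MT 3, MT 4 and MT 5, scan 2 held MT 2, NS 6, NS 7 and NS 10, and scan 3 held NS 8 and NS 9, so scan and group overlap only in scan 2. The 2 arrays of scan 3 were dim, with 58.6% and 63.8% of spots well above background against 77.4% to 83.9% on the other 8. The listed markers of neurons, astrocytes and oligodendrocytes that the array carries all passed the filter that removes dim probes.

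None of the 9 genes differed between the MT and NS groups beyond the spread between rats. By limma with Benjamini-Hochberg adjustment over all RNAs, 0 of 9 passed an adjusted p of 0.05, where 0.232% of the 13373 mRNAs did, 0.0972% as higher and 0.135% as lower in MT. The study words its criteria as a log2 fold change above 1.5 and a p below 0.05, while its figure legends give fold changes above 1.5. Here they were read as a linear fold above 1.5 with an unadjusted limma p below 0.05. By these criteria 0 of 9 passed, where 2.6% of mRNAs did, 1.62% as higher and 0.987% as lower. Of the mRNAs past the criteria 62.1% were higher in MT, and scaling by the 75th percentile put this at 82.4%. At an unadjusted p of 0.05 alone, limma called 0 of the 9. The ranges of the groups overlapped for 9 of 9 genes, and over all mRNAs 5.79% did not overlap. The mean was higher in MT for 4 genes and lower for 5, with a median log2 difference of -0.24 against -0.02 over all mRNAs. The lowest p among the 9 was that of Mx2, with an adjusted p of 0.571 by limma and an exact two-sided permutation p of 0.302 over every assignment of the rats to groups of 5.

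The rats themselves differed widely, and nearly every gene had the same 5 rats on top, though not in the same order among them. For Irf7, the 5 highest arrays were MT 1, MT 3, NS 7, NS 8 and NS 9. The same 5 arrays were highest for 8 of the 9 genes, Irf7 included, and Mx2 was the exception. Over the 13341 mRNAs with a value on every array, 4.22% had these 5 arrays on top. MT 3 was the highest rat for 8 genes and NS 7 for Irf7, while MT 5 was the lowest for 5 genes, NS 10 for 3 and NS 8 for Mx2. High and low rats shared a scan: in scan 1, MT 1 and MT 3 stood above MT 4 and MT 5 for 9 of 9 genes, and in scan 2, NS 7 stood above MT 2, NS 6 and NS 10 for 9 of 9. In scan 3 both rats were among the 5 highest for 8 genes.

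**Figure D1:**
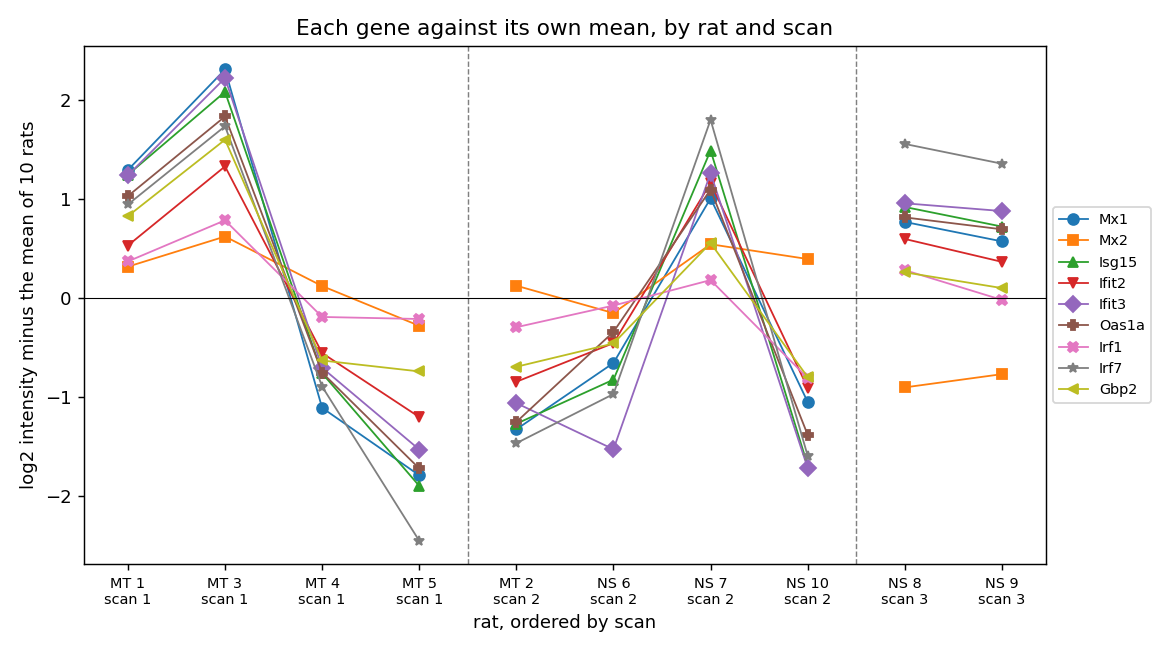
Log2 intensity of each of the 9 genes minus its own mean over the 10 rats (vertical axis) for every rat, ordered by scan (horizontal axis), with 1 coloured line for each gene and dashed lines between scans. MT 1, MT 3 and NS 7 lie above 0 for 9 of 9 genes, and Mx2 is the gene that lies below 0 in NS 8 and NS 9 while most others lie above it.

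Irf7 (chr1:205796956-205800543 in GRCr8), the factor that amplifies type I interferon production, had the widest spread of the 9. Its log2 intensities were 13.13, 10.72, 13.92, 11.29 and 9.73 in MT 1 to MT 5 and 11.21, 13.98, 13.74, 13.54 and 10.59 in NS 6 to NS 10. The 5 high rats stood apart from the others, with 13.13 in the lowest of them and 11.29 in the next rat, and the highest rat had 19-fold the intensity of the lowest. The means were 11.76 ± 1.73 in MT and 12.61 ± 1.58 in NS (SD, n = 5 each), a log2 difference of -0.86 (SE 0.94, 95% interval -2.95 to 1.24, adjusted p = 0.672). Without the 2 dim arrays of scan 3 the difference was -0.17.

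Irf1 (chr10:38417935-38424946), a factor that carries much of the interferon gamma response and whose window holds the GAS printed above, varied far less. Its log2 intensities were 12.20, 11.54, 12.62, 11.64 and 11.62 in MT and 11.75, 12.01, 12.11, 11.81 and 11.02 in NS, in order of rat number. The same 5 rats were highest, but by a narrow margin, since NS 9 at 11.81 stood 0.06 above NS 6. The means were 11.92 ± 0.47 in MT and 11.74 ± 0.43 in NS (SD, n = 5 each), and the log2 difference was 0.18 (SE 0.26, 95% interval -0.40 to 0.76, adjusted p = 0.754).

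Mx1 and Mx2 encode dynamin-like GTPases that restrict viruses, and they lie near each other on chromosome 11 (GRCr8, chr11:50269056-50294699 and chr11:50375101-50399373). Mx1 measured 9.44, 6.82, 10.46, 7.04 and 6.36 in MT 1 to MT 5 and 7.49, 9.16, 8.92, 8.72 and 7.10 in NS 6 to NS 10. It ran from high to low over a 17.1-fold range and followed Irf7. Mx2 measured 11.61, 11.41, 11.91, 11.41 and 11.01 in MT and 11.14, 11.83, 10.39, 10.52 and 11.68 in NS. Here NS 8 and NS 9, among the high rats for its neighbour, were the 2 lowest, and NS 10 was the third highest. These were the 2 dim arrays, and a part of scan in this was not tested. The means (SD, n = 5 each) were 8.03 ± 1.81 in MT and 8.28 ± 0.92 in NS for Mx1, and 11.47 ± 0.33 in MT and 11.11 ± 0.66 in NS for Mx2. The log2 difference was -0.25 for Mx1 (SE 0.81, 95% interval -2.07 to 1.56, adjusted p = 0.897). It was 0.36 for Mx2 (SE 0.30, 95% interval -0.31 to 1.02), and it turned to -0.08 without NS 8 and NS 9.

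Oas1a (chr12:41330423-41341130) encodes an oligoadenylate synthetase, which on sensing double-stranded RNA makes the signal that activates RNase L. Its log2 intensities were 8.35, 6.07, 9.15, 6.57 and 5.60 in MT and 6.98, 8.41, 8.13, 8.01 and 5.94 in NS. High and low rats were 11.7-fold apart at the ends, with 8.01 in NS 9 and 6.98 in NS 6 on either side of the gap. The means were 7.15 ± 1.53 in MT and 7.49 ± 1.03 in NS (SD, n = 5 each), and the log2 difference was -0.35 (SE 0.74, 95% interval -1.997 to 1.30, adjusted p = 0.837). Oas1a has close paralogues, and whether the probe tells them apart was not tested.

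Ifit2 and Ifit3, neighbours on chromosome 1 (chr1:241515735-241521799 and chr1:241527326-241532469), encode tetratricopeptide proteins that bind foreign RNA or the proteins around it. Ifit2 measured 11.27, 9.90, 12.07, 10.19 and 9.54 in MT and 10.29, 11.90, 11.34, 11.11 and 9.83 in NS. Ifit3 measured 11.02, 8.72, 12.002, 9.08 and 8.25 in MT and 8.26, 11.04, 10.74, 10.66 and 8.07 in NS. The order of the rats was close in both, but the range was 5.78-fold for Ifit2 and 15.3-fold for Ifit3. The means (SD, n = 5 each) were 10.59 ± 1.05 in MT and 10.89 ± 0.83 in NS for Ifit2, and 9.82 ± 1.61 in MT and 9.75 ± 1.46 in NS for Ifit3. Their group differences were -0.30 (SE 0.54, 95% interval -1.50 to 0.90) and 0.06 (SE 0.87, 95% interval -1.88 to 2.01) on the log2 scale.

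Isg15 (chr5:172066369-172067656) encodes a ubiquitin-like protein that is joined to other proteins or secreted. It measured 11.99, 9.47, 12.82, 9.98 and 8.84 in MT and 9.92, 12.23, 11.66, 11.46 and 9.05 in NS, a 15.8-fold range. The lowest of the 5 high rats, NS 9, stood 1.48 above MT 4, the next rat. The means were 10.62 ± 1.70 in MT and 10.86 ± 1.33 in NS (SD, n = 5 each), and the log2 difference was -0.24 (SE 0.87, 95% interval -2.17 to 1.69, adjusted p = 0.907).

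Gbp2 (chr2:234005727-234021812) encodes a guanylate-binding GTPase that acts against microbes within the cell and is induced most strongly by interferon gamma. It measured 12.80, 11.28, 13.57, 11.35 and 11.23 in MT and 11.52, 12.53, 12.23, 12.08 and 11.18 in NS. The 2 high MT rats stood above every NS rat, and the other 3 MT rats stood below all but 1 of them. The means were 12.05 ± 1.08 in MT and 11.91 ± 0.55 in NS (SD, n = 5 each), and the log2 difference was 0.14 (SE 0.49, 95% interval -0.94 to 1.23, adjusted p = 0.904).

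**Figure D2:**
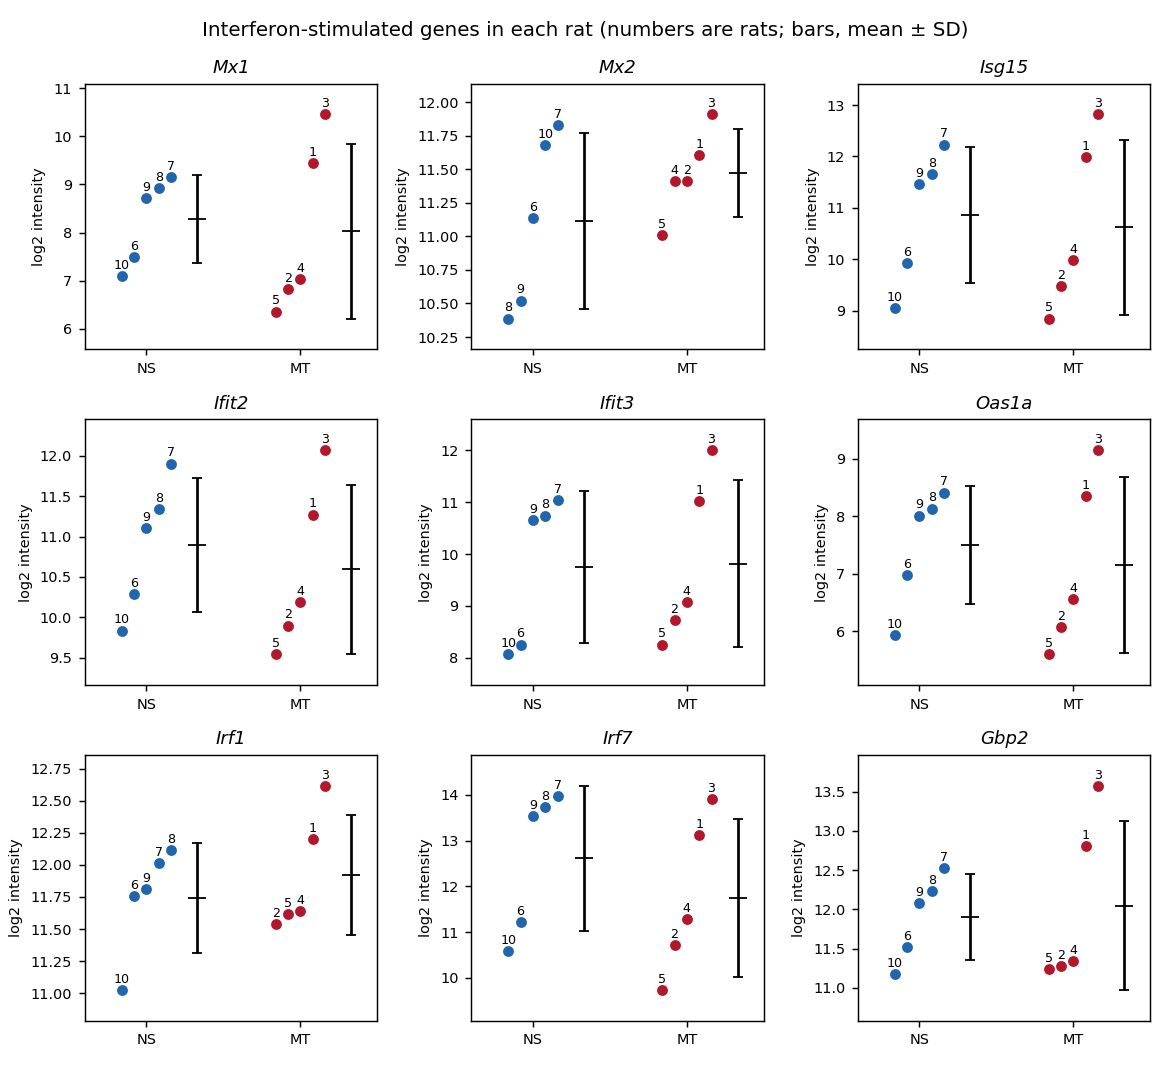
Log2 intensity (vertical axis, scaled for each gene) of the 9 genes in each NS rat (blue) and MT rat (red), with the rat's number beside its point and the mean ± SD of the 5 rats as a black bar. In 8 panels MT 1, MT 3, NS 7, NS 8 and NS 9 are the 5 highest, so that both groups hold high and low rats, and in the Mx2 panel NS 8 and NS 9 are lowest.

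The intervals of the group differences were wide where the rats were far apart. They ran from a ratio of MT over NS of 0.129 to 2.36 for Irf7 and from 0.759 to 1.69 for Irf1, the narrowest of the 9. Differences of 1.5-fold in either direction lay inside the interval for 7 of the 9 genes, and for Mx2 and Irf1 only the upper side did. Leaving out 1 rat in turn moved the log2 difference of Irf7 between -1.40 and -0.35, and of Ifit3 between -0.48 and 0.45. Within scan 2, where both groups were present, MT 2 lay below the mean of NS 6, NS 7 and NS 10 for 9 of 9 genes, by -0.06 for Irf1 to -1.21 for Irf7 on the log2 scale. With scan as a fixed block the difference has these same values, and no adjusted p was under 0.9998.

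**Figure D3:**
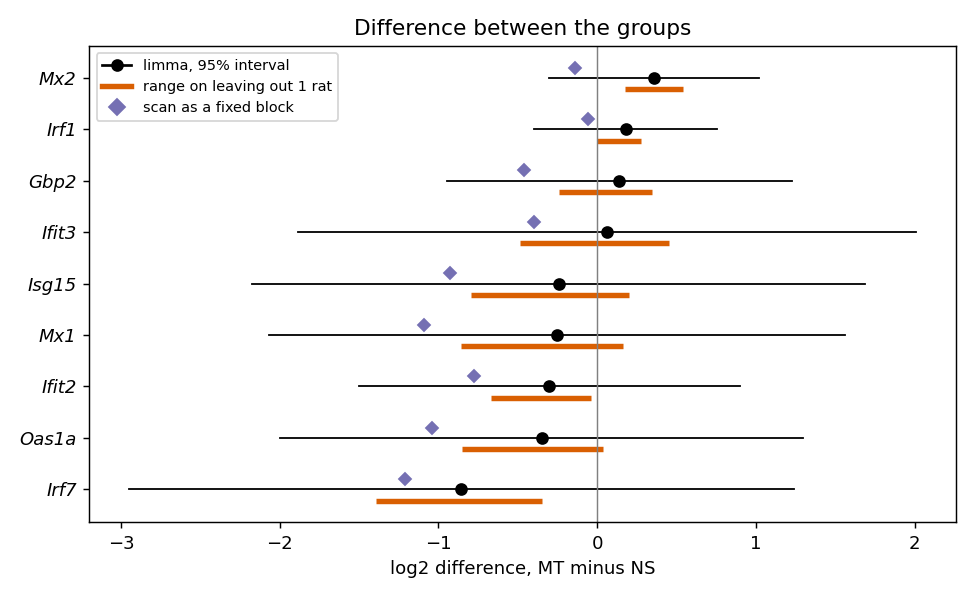
Log2 difference of MT minus NS (horizontal axis) for each gene, with the limma estimate and its 95% interval in black, the range over leaving out 1 rat in orange and the value with scan as a fixed block as a purple diamond. All 9 black intervals include 0, and all 9 diamonds lie below 0.

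The median range of an mRNA over the 10 rats was 1.58-fold. The within-group SD of the log2 intensity, pooled over both groups, had a median of 0.193 over mRNAs and a 95th percentile of 0.772. It lay above that percentile for 7 of the 9 genes, from 0.855 for Gbp2 to 1.66 for Irf7. The SD of Irf7 was the 16th highest of the 13341 mRNAs with a value on every array. Mx2 at 0.519 and Irf1 at 0.449 lay below the 95th percentile.

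**Figure D4:**
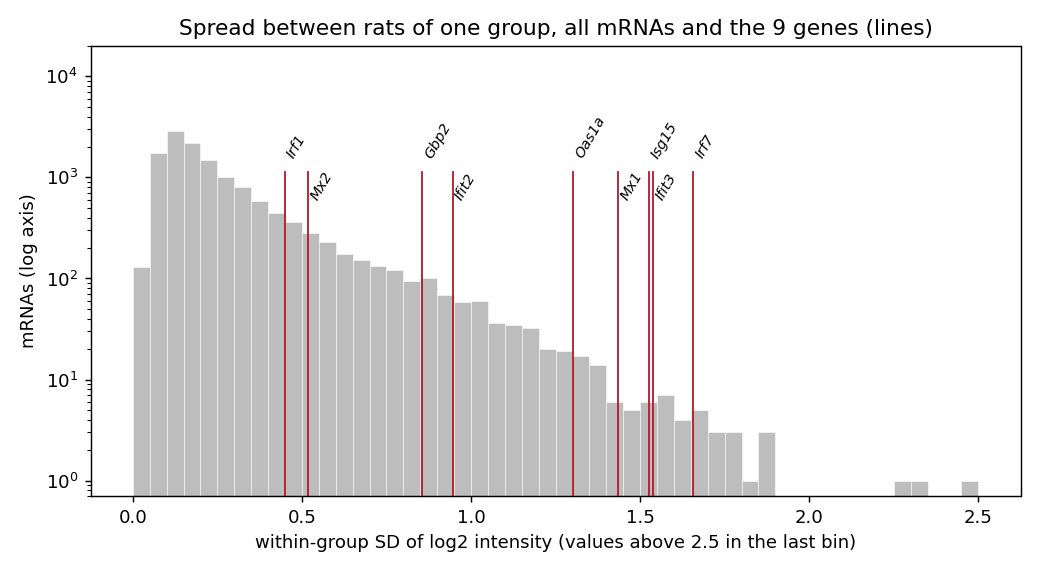
Number of mRNAs (vertical axis, log scale) by their within-group SD of log2 intensity (horizontal axis), with a red line at each of the 9 genes. Most mRNAs lie near 0.193, and Oas1a, Mx1, Isg15, Ifit3 and Irf7 lie between 1.30 and 1.66.

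The rest of the pathway was read from lists of 125 other genes, of which 86 had a probe and 80 passed the filter. Of the 80, 1 passed the adjusted threshold, against 0.232% of all mRNAs. Those past the study's criteria were 3 higher and 0 lower in MT, where 1.62% of all mRNAs were higher and 0.987% lower. Counts this small were not compared with those shares by a test. Of the 3, 2 were not well above background on the dim arrays. The median log2 difference over the 80 was 0.01, and 41 were higher and 39 lower in MT. The lists were not all so balanced. Among other interferon gamma targets 9 were higher and 1 lower, with a median of 0.36, and both ligands tested were higher. Among other type I targets 17 were higher and 21 lower, with a median of -0.08. Direction by list was not tested.

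The ligands and receptors tested did not have the 5 highest arrays of Irf7. Ifnb1 and Ifng, the genes of interferon beta and gamma, were well above background on 2 arrays each and did not pass the filter. These arrays were MT 3 and NS 6 for Ifnb1, and MT 3 and NS 7 for Ifng. MT 3 and NS 7 were the highest rats of the 9 genes, while NS 6 was among the 5 highest for 0 of the 9. The signals were low, with Ifng at a log2 intensity of 4.11 in MT 3 and 4.82 in NS 7. MT 3 also had the largest share of spots well above background of all arrays, 83.9%. A link of either ligand to the high rats was not tested. Ifna4, a type I interferon gene, met the study's criteria with a log2 difference of 1.27 (SE 0.49, adjusted p = 0.253), but its NS values were 3.43, 3.54, 1.20, 1.26 and 3.24, and the 2 low ones were on the dim arrays, where it was not well above background. Without them the difference was 0.40, and with all arrays it was 0.58 in the deposited table, 0.16 with scan as a fixed block and 0.067 with normexp background correction, so its size is not settled. The receptor chain Ifnar1 had a log2 difference of 0.16 (SE 0.13) and a range of 1.64-fold over all rats. Ifngr1, a chain of the interferon gamma receptor, had a log2 difference of -0.53 (SE 0.17), with an unadjusted p of 0.011 and an adjusted p of 0.186. Ifngr2 was well above background on 2 arrays, MT 3 and NS 10, and no probe was matched to Ifnar2 or Tyk2.

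The transducers did not all have the same rats on top. Stat2 and Irf9, which act together at the ISRE and are themselves interferon targets, had the 5 highest arrays of Irf7, with ranges of 2.59-fold and 2.96-fold. Stat2 measured 11.10, 10.41, 11.64, 10.35 and 10.26 in MT and 10.69, 11.19, 10.90, 10.74 and 10.48 in NS. The log2 differences of Stat2 and Irf9 were -0.05 and -0.01, and the lower adjusted p was 0.940. The kinase Jak1 had other arrays on top and a log2 difference of 0.28 (SE 0.17, adjusted p = 0.429).

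Socs3, an inhibitor of STAT signalling that many cytokines induce, was the 1 gene of the lists that rose in MT by the adjusted test. It measured 6.62, 6.81, 6.29, 6.85 and 6.50 in MT and 5.99, 5.81, 5.74, 5.81 and 6.04 in NS, and the groups did not overlap. The log2 difference was 0.74 (SE 0.12, adjusted p = 0.0467). With scan as a fixed block the difference was 0.86 with an adjusted p of 0.578, and with scan as a random block 0.81 with an adjusted p of 0.243. The call was thus lost with either block. The fixed block value rests on scan 2, where MT 2 was the only MT rat. Without scan 3 the difference was 0.67, with an adjusted p of 0.164 by limma. Over all 23 alternatives the difference of Socs3 ran from 0.36 to 0.93, and the call was lost in 15 of them. Its high rats were not those of the 9 genes, since MT 3, highest for 8 of them, was the lowest MT rat here. Nos2, the inducible nitric oxide synthase, had a log2 difference of 1.39 (SE 0.51, adjusted p = 0.233), and like Ifna4 it was not well above background on the dim arrays NS 8 and NS 9, without which the difference was 0.49. With all arrays the difference of Nos2 was 0.70 in the deposited table, 0.44 with scan as a fixed block and 0.16 with normexp background correction.

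The 5 highest arrays of Irf7 were also the highest for 38 of the 80 pathway genes, or 47.5%, against the 4.22% of all mRNAs. By role these were 25 of 38 other type I targets, 5 of 10 other interferon gamma targets, 3 of 6 kinases and STATs, 3 of 7 inhibitors and 2 of 8 nucleic acid sensors. None of the 2 ligands, 3 receptors or 6 other interferon regulatory factors tested shared it. Of the 38, 33 had a promoter in the table and 19 of these (57.6%) held the ISRE letters, where 6 of 29 (20.7%) of the other pathway genes did. The GAS letters stood in 6 of the 33 (18.2%) and in 7 of the 29 (24.1%). The sets differ in role, since 25 of the 38 are other type I targets, while every ligand, receptor and other regulatory factor tested falls outside the 38. The shares were not compared within a role, so role and the order of rats cannot be told apart here.

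The 5 mRNAs outside the 9 whose values were most like the mean z-score of the 9 over the 10 arrays were Oas1k (Pearson r 0.996), Phf11 (0.995), Ifgga2l1 (0.985), Parp12 (0.985) and Ccl5 (0.984). These correlations describe 10 arrays that fall into high and low rats, so they rest mainly on that gap. Ccl5, a chemokine made by T cells among others, ranged 24.7-fold, with a log2 difference between the groups of 0.13. The lowest adjusted p of the 5 was 0.879.

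Most of the T and NK cell markers tested were high in the same rats as the 9 genes. The summed intensity of the 9 T and NK cell markers tested was 11.64, 10.38, 12.50, 10.23 and 10.43 on the log2 scale in MT 1 to MT 5 and 10.65, 11.54, 11.25, 11.01 and 10.00 in NS 6 to NS 10, a 5.65-fold range. The 5 highest arrays were again those of Irf7, as they were for 6 of the 9 markers: Cd3e, Cd2, Cd8a, Nkg7, Gzmb and Prf1. Cd3d, Cd5 and Ncr1 had other arrays on top, and Cd3g did not pass the filter. Cd5 ran the other way at its ends, lowest in MT 3 at 4.42 and highest in MT 2 at 5.26. The 9 markers had a median log2 difference of 0.05 between the groups, and 0 of 9 passed the adjusted threshold. The sums of 2 B cell and 6 endothelial markers also had these 5 arrays on top, with ranges of 1.96-fold and 1.38-fold. The part of these cells in the levels of the 9 genes was not tested.

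Of the lists tested, 4 had a median log2 difference beyond 0.3 in either direction: microglia, monocytes and macrophages, neutrophils and B cells. Microglial markers had a median log2 difference of -0.34, with Gpr34 at -0.63 (adjusted p = 0.0414) and C1qa at -0.51. With scan as a fixed or random block, no mRNA passed the adjusted threshold by limma, Gpr34 included, while 525 and 981 had an unadjusted p under 0.05. Of the microglial markers, 1 of 10, Aif1, had the 5 highest arrays of Irf7. Monocyte and macrophage markers had a median of 0.63, with 3 of 5 higher in MT: Cd14 was at 1.09 and Lyz2 at 0.77, while Cd68 was at -0.38 and Ccr2 at -0.05. Neutrophil markers had a median of 0.64 with 4 of 4 tested higher, among them Csf3r at 0.91 and Cxcr2 at 0.64. The array carried 7 neutrophil markers, of which Ltf, Mmp8 and Fpr1 did not pass the filter, and Cd163 of the monocyte list did not either. Of the 9 tested monocyte and neutrophil markers, none had those arrays on top and none passed the adjusted threshold. The 2 B cell markers were Cd79b at -0.89 and Pax5 at 0.23.

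**Figure D5:**
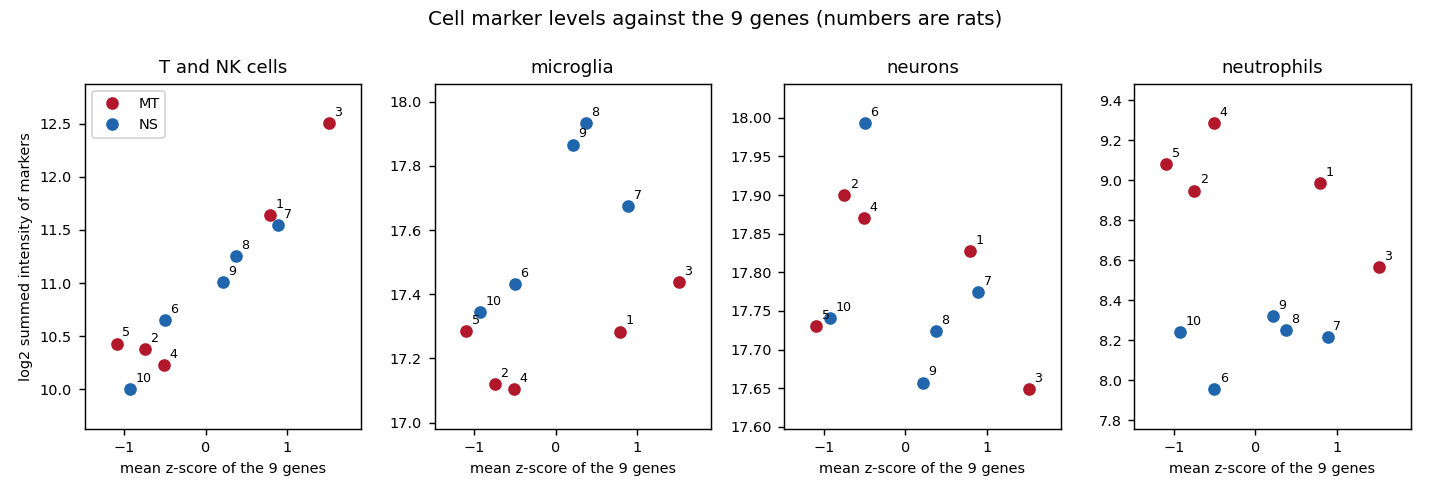
Log2 summed intensity of the markers of T and NK cells, microglia, neurons and neutrophils (vertical axes, 1 panel each) against the mean z-score of the 9 genes (horizontal axis), with 1 point per rat, red for MT and blue for NS. T and NK markers are highest in the 5 rats with a mean z-score above 0, from 11.01 in NS 9 to 12.50 in MT 3, whereas all MT rats lie above all NS rats for neutrophil markers.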

How the data were processed

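Lumbar enlargement RNA of 5 MT rats and 5 NS rats was measured on Arraystar rat lncRNA arrays, 1 per rat. The authors extracted the spots with Agilent Feature Extraction 11.0.1.1, and the deposited scanner output holds the processed intensity of each spot on a linear scale. The authors also deposited a table of quantile-normalized log2 values, against which the 9 genes differed by at most 0.0321.

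R 4.3.3 was used with limma 3.58.1 and the package data.table in its version 1.17.8. Log2 intensities of all spots other than controls were quantile normalized. Outlier spots were then dropped, and values were averaged over spots and over the probes of each RNA. A probe needed 5 or more arrays on which over 50% of its spots exceeded background by the scanner flag. MT was compared with NS by limma over 20284 RNAs with Benjamini-Hochberg adjustment, and single values by exact permutation. Accessions were matched without version to RefSeq (GRCr8), which named 14274 of 15323 mRNA probes. Alternatives covered scaling, background correction, filters, the Student test, trend, weights, scan and each rat left out. The normexp alternative used median spot signals. The pathway lists held ligands, receptors, transducers, regulatory factors, inhibitors, sensors and targets. The genes named were the 9, fixed components of the pathway (1 is not reported here), list genes past the adjusted threshold or among the 4 largest folds past the study's criteria, the 5 most like mRNAs and the 2 largest differences in marker lists whose median passed 0.3. The genes, lists and rules were chosen with earlier results of these data known. The number of arrays limits the precision. Figures used matplotlib 3.10.9 in Python 3.11.15.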

Additional observations from a re-analysis of the deposited data

How the results depend on the processing

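Over 23 alternatives, 0 of the 9 genes passed the adjusted threshold or the study's criteria in any, and 0 of 207 values had an unadjusted p under 0.05. Ifit2 and Irf7 kept the sign of their difference throughout, and 8 genes had the 5 highest arrays of Irf7 under 75th percentile scaling, normexp, the deposited table and outlier spots kept, as did 8 for the 3 highest of 8 arrays without scan 3 (alternatives chosen after seeing the data). Signs turned elsewhere, on differences well inside their error. With scan as a fixed block the log2 difference was -0.46 for Gbp2, -0.40 for Ifit3, -0.0604 for Irf1 and -0.14 for Mx2, and as a random block -0.18 for Gbp2 and -0.26 for Ifit3. With array weights it was 0.33 for Isg15, 0.20 for Mx1, 0.0886 for Oas1a and 0.0106 for Irf9. Without scan 3 it was 0.22 for Isg15, 0.11 for Mx1, 0.0367 for Oas1a, -0.0809 for Mx2 and 0.0363 for Irf9. Irf9 was at 0.0044 in the deposited table and Stat2 at 0.0341 with normexp. Leaving out each rat in turn gave -0.24 to 0.34 for Gbp2, -0.48 to 0.45 for Ifit3, -0.00065 to 0.28 for Irf1, -0.25 to 0.15 for Irf9, -0.79 to 0.20 for Isg15, -0.86 to 0.16 for Mx1, -0.85 to 0.0385 for Oas1a and -0.27 to 0.0741 for Stat2. The median of the 9 ran from -0.78 with the fixed block to 0.20 with array weights, and from -0.67 to 0.20 with 1 rat left out. The cause of these turns was not tested.

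Of the 80 pathway genes, Socs3 was lost and 0 passed the adjusted threshold with 75th percentile scaling, normexp, no filter, the Student test, either scan block and without scan 3, with 1 to 10 at an unadjusted p under 0.05 by limma or the Student test. With 1 rat left out the count was 0 to 1, and Socs3 passed only without MT 3 or NS 10. The study's criteria gave 5 with 75th percentile scaling, 0 with normexp, 1 with a filter on all arrays, 6 with array weights, 1 with the fixed block, and 2 to 6 with 1 rat left out. Among mRNAs the adjusted count was 109 with normexp, 50 in the deposited table, 11 with no filter, 90 with a filter on all arrays, 90 with a variance trend, 158 with array weights and 2 without scan 3. It was 0 by limma with the fixed and the random block, where 525 and 981 had an unadjusted p under 0.05, and 0 to 59 with 1 rat left out, with 0 without MT 1 or NS 9, where 1530 and 1694 did, 2 without MT 4 or NS 8, and 59 without MT 2. The study's criteria gave 151 mRNAs with normexp, 531 with no filter, 220 with the fixed block and 225 with the random block, and 298 to 506 with 1 rat left out. No paired analysis was possible because the groups share no rat number. Signal over background limits the dim probes most, above all on NS 8 and NS 9.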

Other observations

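Outside the 9 genes, the pathway genes with the 5 highest arrays of Irf7 and the widest ranges were Cxcl10, Usp18 and Rsad2, chosen after their values were seen. Cxcl10, a chemokine that draws T cells, measured 12.76, 10.62, 13.58, 10.83 and 9.85 in MT and 10.82, 12.83, 12.08, 11.81 and 9.45 in NS on the log2 scale, a 17.5-fold range. Usp18, which removes Isg15 from proteins and dampens the type I receptor, ranged 16.5-fold, and Rsad2, the antiviral enzyme viperin, ranged 13.1-fold. Their log2 differences between MT and NS were 0.13, -0.16 and -0.43, and the lowest adjusted p was 0.806. The 38 pathway genes with these arrays on top had a median range of 3.60-fold, against 2.09-fold for the other 42. The widest range of all was among the other 42, at 42.5-fold for Cxcl11.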
